A study of Gallus gallus with 6 samples.

Results

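Protein kinases add phosphate groups to proteins or lipids, and phosphatases take them off. The genes described here are the members of 14 symbol families of both kinds that were read on a spotted cDNA array of chicken macrophages: MAPK, MAP2K, MAP3K and MAP4K of the MAP kinase cascade, PRKA, PRKC, PRKD, STK, CSNK, CAMK, the PIK3 genes around phosphoinositide 3-kinase, the PPP serine and threonine phosphatases, and the PTPN and PTPR tyrosine phosphatases. Members were taken by the start of their symbol in the probe annotation, and MAPK14, MAP3K8 and spots assigned to several genes were left out. This gave 44 genes out of 2253 named genes, with 61 cDNA clones and 183 spots, and no PRKD gene was among them. Choice by symbol takes in proteins that are neither kinase nor phosphatase, such as PIK3AP1, PIK3IP1, MAPKAP1 and MAPK1IP1L. It also takes in subunits that are regulatory and not catalytic, such as PIK3R1, PIK3R5, PRKAG2 and PRKAR1A.

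Macrophages grown from chicken peripheral blood had been given whole E. coli of strain XL10 or lipopolysaccharide (LPS) from S. typh, or were left unstimulated. For times beyond 2 h the stimulus had been taken away at 2 h. RNA from these cells went onto 6 arrays. The E. coli 1 h array paired E. coli 1 h with unstimulated cells, and the LPS 1 h array paired LPS 1 h with unstimulated cells. The E. coli time array compared E. coli at 4 h and at 2 h. The 4 h stimulus array set E. coli 4 h beside LPS 4 h, and the 8 h stimulus array did so for E. coli 8 h and LPS 8 h. The sixth array held LPS 2 h alone. The labels give no genotype, bird number or age. Each comparison had 1 array and could not be tested. Every ± below is an SD over spots within 1 array, which is a technical spread.

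Ratios are log2 values centred on the median of their array, with base 2 assumed, and a gene was counted as past 2-fold when its centred ratio was at least 1 in size. Since the sources name no numerator and no dyes, which RNA a positive ratio favours is not settled, and every sign is the deposited one. By the labels, channel 1 held E. coli on the E. coli 1 h, the 4 h stimulus and the 8 h stimulus arrays, unstimulated cells on the LPS 1 h array and E. coli 2 h on the E. coli time array. If the ratios were channel 1 over channel 2, a positive value would mean higher with E. coli on the first 3 of these, and a negative value would mean higher with LPS on the LPS 1 h array and higher at 4 h on the E. coli time array. IL1B, a cytokine gene known to be induced by LPS and by bacteria, had 3.38 ± 1.60 on the E. coli 1 h array and -5.10 ± 1.57 on the LPS 1 h array, over 6 spots each. These are the signs that reading would give a gene raised by both. For E. coli 1 h the title lists the control ahead of the stimulus, the reverse of the channels.

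In macrophages, bacterial products bound by toll-like receptors start a chain of kinases. MAP3K7 passes the signal to MAP2K enzymes, these to MAP kinases such as MAPK8, and MAP kinases to MAPKAPK2, which stabilises cytokine messages. Phosphoinositide 3-kinases, built from a catalytic and a regulatory subunit, are joined to the receptors by the adaptor PIK3AP1, and phosphatases end the signals. Most of this control acts on proteins that are already made, and the arrays read RNA only.

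Before centring, the array medians were 0.07 on the E. coli 1 h array, 0.29 on the LPS 1 h array, 0.49 on the E. coli time array, -0.11 on the 4 h stimulus array and 0.12 on the 8 h stimulus array. Members had a median spot SD of 0.20 and 0.23 on the arrays of E. coli 1 h and LPS 1 h, and 0.56, 0.76 and 0.54 on the E. coli time, the 4 h stimulus and the 8 h stimulus arrays, so the later arrays were the noisier ones. Of 11 macrophage markers read, 9 were past 2-fold negative on the 4 h stimulus array and 8 on the 8 h stimulus array, where 11.7% and 12.9% of all genes were, and the marker medians were -1.16 and -1.44. Those with spots of one sign on both arrays were CD74, LY86, CTSB, CTSS and C1QC, with C1QB on the first and TREM2 on the second. The marker median was -0.65 on the E. coli 1 h array, with CTSS past 2-fold at -1.01, and 0.09 on the LPS 1 h array, with CSF1R at 1.17 and TREM2 at 1.31. For the E. coli time array it was 0.63, with C1QC at 1.41, FCER1G at 1.03 and MARCO at -1.01. The T cell markers went opposite ways on the 4 h stimulus array, CD3D at -2.70 ± 0.75 and CD28 at 2.10 ± 2.49, and CD3D had -4.01 ± 0.76 on the 8 h stimulus array. The erythroid gene HBBA had 1.79 ± 1.15 on the 4 h stimulus array. Of the heterophil markers, AVD had -1.15 on the LPS 1 h array. S100A12 had -1.35, -1.34 and -2.18 on the E. coli time, 4 h stimulus and 8 h stimulus arrays. The other heterophil markers all shared the sign of S100A12 on the 4 h stimulus array only. There CSF3R, LYZ and AVD had -0.48, -0.27 and -0.95, LYZ with spots of both signs. They had 0.31, 0.07 and 0.21 on the E. coli time array, and -0.51, 0.80 and 0.90 on the 8 h stimulus array. The heterophil medians on the E. coli time, 4 h stimulus and 8 h stimulus arrays were 0.14, -0.71 and 0.15. For E. coli 1 h and LPS 1 h they were 0.02 and -0.48. The part of these shifts in the members' ratios was not tested, and in bulk RNA fewer cells of a type cannot be told apart from less RNA per cell. By LPS 2 h intensity the macrophage markers ran from percentile 42.2 for FCER1G to 99.5 for CD74. The brightest 10% of all spots had medians of -0.76 and -0.43 on the 4 h and 8 h stimulus arrays. The part of brightness in the marker ratios was not tested either. At LPS 2 h the macrophage markers had a median intensity of 2.37, the T cell markers CD3D and CD28 had 5.40 and 0.489, and the B cell marker BTK, which macrophages also express, had 0.457. The erythroid genes HBA1 and HBBA had 0.111 and 0.349. Heterophil markers had a median of 2.46 over 4 genes that differed widely. CSF3R was dim at 0.251, while LYZ, S100A12 and AVD had 1.99, 2.93 and 4.17. Which cells the RNA of these genes came from was not tested, so the values give no measure of heterophils in the culture.

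As a set the members lay at the centre of every ratio array. Their median was -0.07 on the E. coli 1 h array, -0.02 on the LPS 1 h array, -0.02 on the E. coli time array, -0.04 on the 4 h stimulus array and 0.07 on the 8 h stimulus array, beside medians over all genes of -0.01, 0.05, 0.04, 0.003 and 0.01. With E. coli 1 h 3 of the 44 members were past 2-fold, all positive, where 16.3% of all genes were past 2-fold, 14.7% positive and 1.51% negative. On the LPS 1 h array 4 members were past 2-fold, 1 positive and 3 negative, where 11.2% of all genes were, 3.78% positive and 7.37% negative. The E. coli time array had 10 such members, 5 of each sign, where 23.1% of all genes were past 2-fold, 14.8% positive and 8.30% negative. Without centring that array had 10 members positive and 1 negative, so its balance of signs depends on where the zero is placed.

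On the 4 h stimulus array 5 members were past 2-fold, 2 positive and 3 negative, where 29.4% of all genes were, 17.7% positive and 11.7% negative. The split became 2 and 5 without centring, and 2 and 1 with the arrays scaled to 1 spread. On the 8 h stimulus array 9 were past it, 7 positive and 2 negative, where 27.9% of all genes were, 15.0% positive and 12.9% negative, and without centring the split was 9 and 1. As shares, members past 2-fold made up 6.82%, 9.09%, 22.7%, 11.4% and 20.5% in the order of the arrays above, below the share of all genes on each array, though close to it on the E. coli time array.

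**Figure D1:**
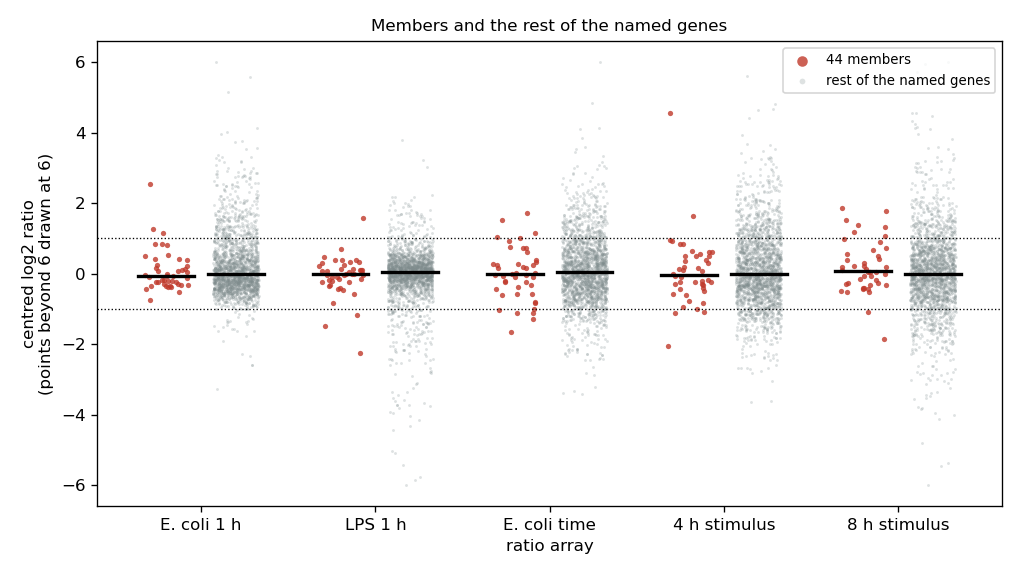
Centred log2 ratio (vertical axis) of the 44 members (red, left of each pair) and of the rest of the named genes (grey, right) on the 5 ratio arrays. Each point is a gene, black bars are medians, dotted lines mark 2-fold, and the member medians lie between -0.07 and 0.07.

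Over the 5 ratio arrays, 20 of the 44 members were past 2-fold at least once, where 59.4% of all genes were. With the further demand of at least 2 spots, all of one sign, this held for 18 members, where 50.8% of all genes met it. Of the 20, 14 were past 2-fold on 1 array, 3 on 2 arrays, MAP3K20 on 3, and PIK3R1 and CSNK2A1 on 4. The other 24 members stayed within 2-fold on every array, PPP1CC on the E. coli time array being the closest to it. They include the kinases MAP2K1, MAP3K7 and MAPK8 of the cascade itself, both Hippo kinases STK3 and STK4, PPP2CA, the catalytic subunit of protein phosphatase PP2A, and PTPRC, the leukocyte phosphatase CD45.

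**Figure D2:**
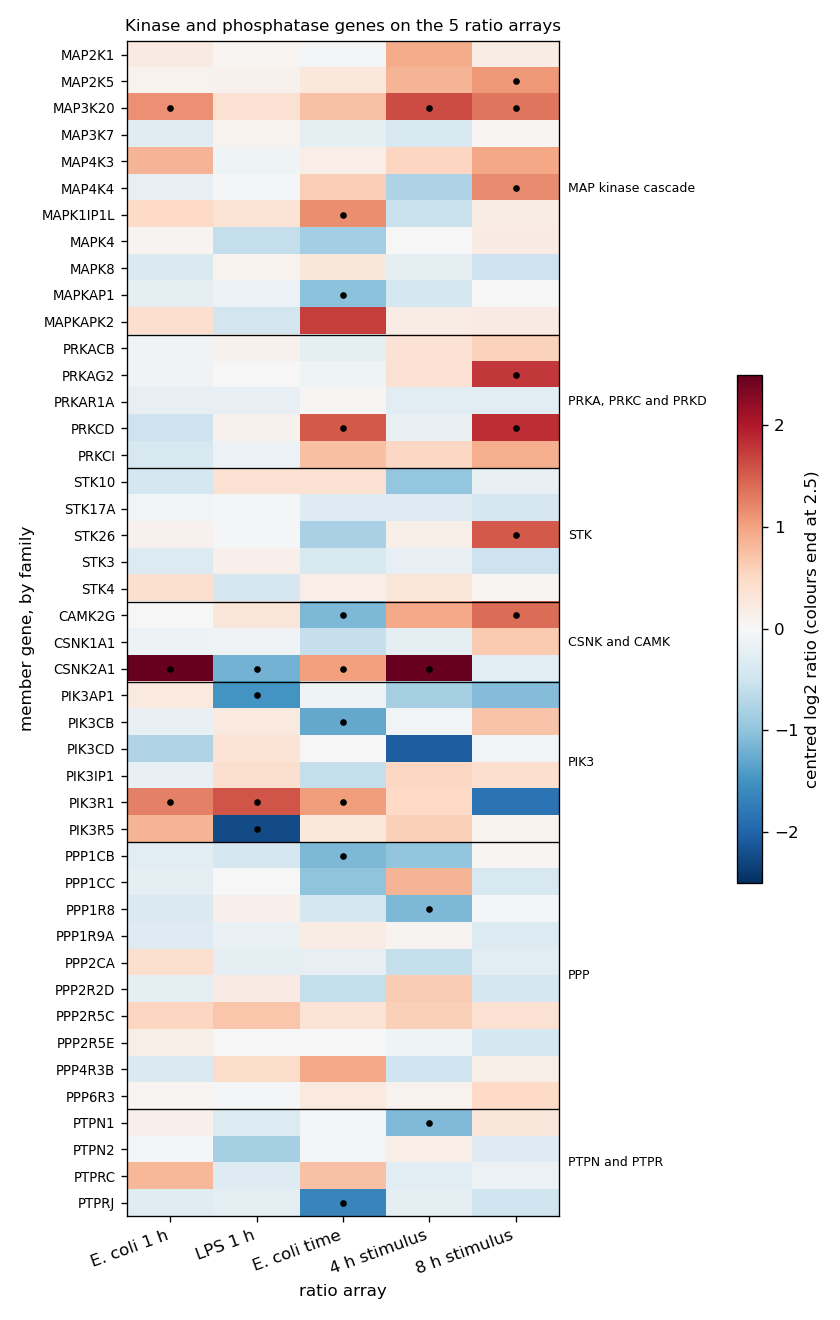
Centred log2 ratio (colour) of each of the 44 members (rows, by family) on the 5 ratio arrays (columns). A dot marks a member past 2-fold with at least 2 spots, all of one sign, and CSNK2A1 and MAP3K20 carry 4 and 3 dots.

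Counts within a single family can be read only loosely against the shares of all genes given above. The PIK3 genes held the member with the largest ratio on the LPS 1 h array, and the only member there past 2-fold on several clones. PIK3R5, a regulatory subunit of the gamma form of phosphoinositide 3-kinase, which acts below G protein-coupled receptors in leukocytes, had -2.25 ± 0.17 there, a 4.74-fold difference. Its 3 spots stood at -2.11, -2.44 and -2.18, and by size it was number 50 of 2251 genes read. PIK3R5 had 0.85 ± 0.20 on the E. coli 1 h array, from spots at 1.04, 0.65 and 0.87, so it was short of 2-fold and of the opposite sign. On the later arrays it had 0.26 on the E. coli time array, 0.60 on the 4 h stimulus array and 0.09 on the 8 h stimulus array. The arrays of E. coli 1 h and LPS 1 h share unstimulated cells in opposite channels. If both were channel 1 over channel 2, these ratios would put PIK3R5 higher with either stimulus than in unstimulated cells.

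PIK3AP1, the adaptor that links toll-like receptors and the B cell receptor to phosphoinositide 3-kinase, was the brightest member at LPS 2 h, with an intensity of 4.29 ± 2.08, at number 80 of the 2253 genes. On the LPS 1 h array it had -1.49 ± 0.14 over 9 spots, a 2.81-fold difference. Its 3 clones gave -1.50 ± 0.15, -1.47 ± 0.16 and -1.50 ± 0.17, and the 9 spots lay between -1.69 and -1.29. The clones thus differed by less than the spots of any 1 of them. On the E. coli 1 h array PIK3AP1 had 0.24 ± 0.14 and on the E. coli time array -0.11 ± 0.15, both small and well within 2-fold. On the 4 h stimulus array it had -0.83 ± 1.28 and on the 8 h stimulus array -1.08 ± 1.19, with spots of both signs on each. At 8 h clones 2 and 3 had -1.61 ± 0.19 and -1.39 ± 0.44, while clone 1 had -1.13, -1.56 and 1.99 in its 3 spots.

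**Figure D3:**
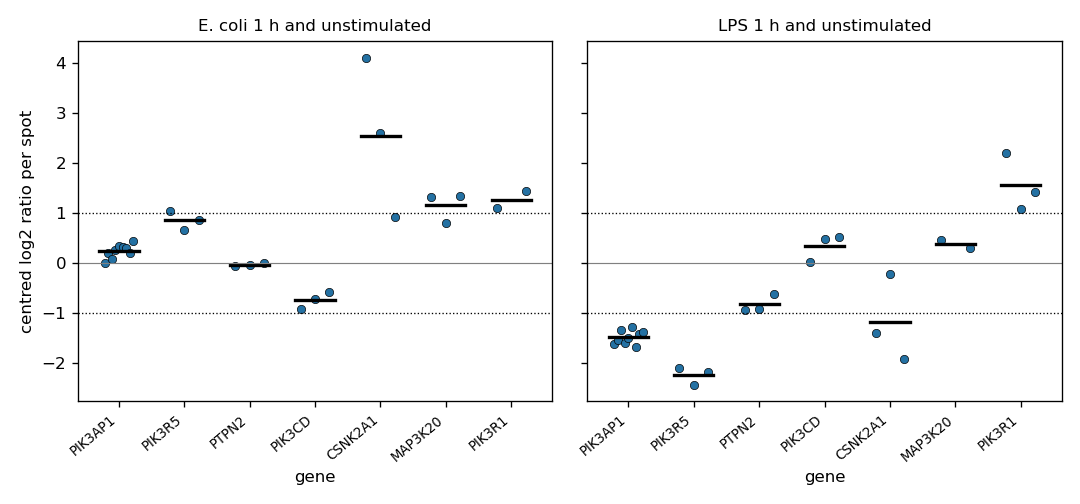
Centred log2 ratio of every spot (points) and the mean (bars) of 7 members on the E. coli 1 h array (left) and the LPS 1 h array (right), with dotted lines at 2-fold. On the right the 9 spots of PIK3AP1 and the 3 of PIK3R5 lie below the lower line, and the spots of CSNK2A1 spread widest.

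The remaining PIK3 genes were less even. PIK3R1, the common regulatory subunit, had 1.26 ± 0.24 over 2 spots on the E. coli 1 h array, 1.57 ± 0.58 on the LPS 1 h array, 1.05 ± 0.15 on the E. coli time array and 0.50 ± 0.33 on the 4 h stimulus array. It was the dimmest member, with an LPS 2 h intensity of 0.0784. After removal of the trend of ratio with brightness, its values on the first 3 of these arrays were 0.57, 1.36 and 0.42, so only that on the LPS 1 h array remained past 2-fold. Its mean of -1.85 on the 8 h stimulus array came from 1 spot at -8.90 beside others at 1.93 and 1.43, and the median of the spots was 1.43.

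PIK3CD, the catalytic subunit typical of leukocytes, had -0.75 ± 0.18 on the E. coli 1 h array and 0.34 ± 0.27 on the LPS 1 h array. On the 4 h stimulus array its spots were -2.83, -3.80 and 0.47, which gives -2.05 ± 2.24 and no common sign. It had 0.02 on the E. coli time array and -0.07 on the 8 h stimulus array. PIK3CB, a more widely expressed catalytic subunit, had -0.19 and 0.25 on the E. coli 1 h and LPS 1 h arrays and -0.07 and 0.72 on the 4 h and 8 h stimulus arrays. PIK3CB reached -1.28 ± 0.97 on the E. coli time array, where 1 spot at -2.40 stood apart from -0.63 and -0.80, and it had -0.78 without centring. PIK3IP1, a membrane protein that inhibits the kinase, stayed between -0.60 and 0.51 on all 5 arrays. The catalytic subunits CB and CD were thus each past 2-fold on 1 array, not the same one, and negative on it.

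The group with MAP kinase cascade symbols had 11 members, the non-kinases MAPKAP1 and MAPK1IP1L among them. None was past 2-fold on the LPS 1 h array, where 11.2% of all genes were, a share that 0 of 11 lies close to. The 11 members ran there from -0.59 for MAPK4 to 0.38 for MAP3K20. MAPK4 is an atypical MAP kinase. The E. coli 1 h array had them from -0.37 for MAPK8, the JNK kinase of stress signalling, to 1.15 for MAP3K20, a kinase at the top of the stress cascade that also senses stalled ribosomes. MAP3K20 was the only one of the 11 past 2-fold there, where 16.3% of all genes were. MAP3K20 was positive on all 5 arrays. Its values were 1.15 ± 0.31 on the E. coli 1 h array, 0.38 ± 0.11 on the LPS 1 h array, 0.74 ± 0.08 on the E. coli time array, 1.63 ± 0.85 on the 4 h stimulus array and 1.33 ± 1.16 on the 8 h stimulus array. It was dim at LPS 2 h, with an intensity of 0.149 at percentile 15.4. With the trend of ratio with brightness removed, it had 0.63, 0.88 and 0.81 on the 3 arrays where it had been past 2-fold, all short of it.

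MAPKAPK2, the kinase that MAPK14 activates, had clones that disagreed. Its mean on the E. coli time array was 1.73 ± 5.04 over 9 spots, with a median of -0.27. Clone 2 had spots at 1.60, 2.53 and 14.8 there, while clones 1 and 3 had -0.27 ± 0.05 and -0.86 ± 0.21. Its 3 clones had -0.21, -0.30 and -0.87 on the LPS 1 h array, all negative and short of 2-fold. On the E. coli 1 h array their values were -0.29 ± 0.09, 0.98 ± 0.31 and 0.59 ± 0.16. Over all clones MAPKAPK2 had 0.43 ± 0.59 there, -0.46 ± 0.32 on the LPS 1 h array, 0.18 on the 4 h stimulus array and 0.21 on the 8 h stimulus array.

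MAPKAP1, a subunit of the mTOR complex that phosphorylates AKT, had -1.02 ± 0.14 on the E. coli time array, with spots at -1.13, -1.09 and -0.86. It was just past 2-fold there, and was -0.53 without centring and -0.75 after removal of the trend. On the other arrays it had -0.23 (E. coli 1 h), -0.14 (LPS 1 h), -0.44 (4 h stimulus) and -0.01 (8 h stimulus). MAPK1IP1L, a protein named for an interaction with a MAP kinase, had 1.17 ± 0.76 on the E. coli time array, with spots from 0.37 to 1.89, and stayed between -0.57 and 0.50 elsewhere.

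On the 8 h stimulus array 3 of the 11 members with MAP kinase cascade symbols were past 2-fold, all positive. Over all genes 27.9% were past 2-fold there, a share that 3 of 11 lies close to, and 15.0% were positive. MAP2K5, which activates the large MAP kinase ERK5, had 1.08 ± 0.33 from spots at 0.70, 1.31 and 1.23, and MAP4K4, a kinase upstream of JNK, had 1.18 ± 0.71 from spots at 1.17, 0.48 and 1.90. MAP4K3, a relative that also feeds amino acid signals to mTOR, had 0.97 ± 0.38 and fell just short. MAP2K5 and MAP4K4 were dim (percentiles 25.3 and 16.2 of LPS 2 h intensity) and had 0.77 and 0.69 after removal of the trend, both within 2-fold. MAP2K5 had 0.08, 0.10, 0.26 and 0.84 on the E. coli 1 h, LPS 1 h, E. coli time and 4 h stimulus arrays, and MAP4K4 had -0.20, -0.03, 0.62 and -0.77. MAP4K3 had 0.85 ± 0.11 on the E. coli 1 h array and -0.11 ± 0.16 on the LPS 1 h array.

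MAP3K7, MAPK8, MAP2K1 and MAPK4 stayed within 2-fold on all 5 arrays. MAPK14 and MAP3K8, which were left out of the members, were past it on some arrays and are given with the partners below. MAP3K7, the kinase TAK1 that activates both NF-kB and MAP kinases, stayed between -0.41 and 0.08 over 2 clones, although on the E. coli 1 h array clone 1 had -0.71 ± 0.27 and clone 2 had 0.09 ± 0.34. MAPK8 stayed between -0.53 and 0.28. MAP2K1, the kinase that activates the ERK enzymes, stayed between -0.04 and 0.93, the last on the 4 h stimulus array with an SD of 1.33. MAPK4 had -0.59 ± 0.19 over 6 spots, all negative, on the LPS 1 h array, and -0.84 ± 0.61 on the E. coli time array, where its clones had -1.38 ± 0.02 and -0.31 ± 0.28.

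Among the PRKA and PRKC genes, none of 5 was past 2-fold on the E. coli 1 h, LPS 1 h and 4 h stimulus arrays. Of all genes 16.3%, 11.2% and 29.4% were past 2-fold on these arrays. The first of these ran from -0.51 for PRKCD to -0.08 for PRKACB, so all 5 were on the negative side, and the second from -0.21 to 0.12. PRKCD, the delta form of protein kinase C, which serves the oxidative burst of phagocytes, had spots at -0.55, -0.45 and -0.53 on the E. coli 1 h array and 0.12 ± 0.30 on the LPS 1 h array. On the 8 h stimulus array it had 1.85 ± 0.11 from 2 spots, the largest positive value of any member there and a 3.61-fold difference. Its 2 spots on the E. coli time array were 2.89 and 0.17, a mean of 1.53 ± 1.92 that was 0.17 without dim spots, and on the 4 h stimulus array -1.97 and 1.58. Those last values have no common level, so only the 8 h pair was close.

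PRKAG2, a regulatory subunit of the energy sensor AMPK, had 1.77 ± 0.52 on the 8 h stimulus array from spots at 1.22, 2.25 and 1.85, a 3.42-fold difference, and 1.82 after removal of the trend. On the other arrays it was within 2-fold, with -0.09, -0.01, -0.10 and 0.38 on the E. coli 1 h, LPS 1 h, E. coli time and 4 h stimulus arrays. PRKCI, an atypical protein kinase C of cell polarity, had 0.91 ± 0.11 on the 8 h stimulus array and 0.51 ± 0.04 on the 4 h stimulus array, both with 3 spots of one sign and short of 2-fold. It was dim, at percentile 11.3. The cyclic AMP kinase was represented by its catalytic subunit PRKACB, between -0.25 and 0.57, and its regulatory subunit PRKAR1A, between -0.29 and 0.02.

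Of the 5 STK genes, 1 was past 2-fold on 1 array, the 8 h stimulus array, where 27.9% of all genes were. STK26, a kinase of the Golgi and of cell polarity, had 1.53 ± 2.22 on the 8 h stimulus array, where 1 spot at 4.10 stood beside 0.18 and 0.31, and the median of the spots was 0.31. It had -0.80 ± 0.12 on the E. coli time array, with all 3 spots negative. STK4 had 0.40 ± 0.15 on the E. coli 1 h array and -0.43 ± 0.10 on the LPS 1 h array, each with 3 spots of one sign. STK3 had -0.34 ± 0.20 and 0.13 ± 0.11 on the same arrays, so the Hippo kinases had opposite signs on both, all short of 2-fold. STK10, a lymphocyte kinase that phosphorylates proteins linking actin to the membrane, had -0.43 ± 0.27 on the E. coli 1 h array and 0.38 ± 0.23 on the LPS 1 h array over 9 spots of one sign each. On the 4 h stimulus array STK10 had -0.96 ± 1.12, the lowest of the family. The family otherwise reached 0.37 for STK10 on the E. coli time array, 0.30 for STK4 on the 4 h stimulus array and -0.51 for STK3 on the 8 h stimulus array. STK17A, a relative of the death-associated kinases, stayed between -0.41 and -0.04.

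Among casein kinases and CAMK, CSNK2A1 had the largest ratio of all members. CSNK2A1 is the catalytic subunit of casein kinase 2, a constantly active kinase. It had 2.54 ± 1.60 on the E. coli 1 h array, from spots at 4.11, 2.60 and 0.91, and -1.18 ± 0.87 on the LPS 1 h array, from spots at -1.41, -0.22 and -1.92. Its 2 spots on the 4 h stimulus array were 1.69 and 7.45, a mean of 4.57 ± 4.07, and on the E. coli time array they were 1.40 and 0.63. The spots agreed in sign on these 4 arrays and differed widely in size, and on the 8 h stimulus array they had -0.27 ± 1.10 with both signs. Its clone was among the dimmest of the members, at percentile 7.72 with an intensity of 0.0938 ± 0.0262, and none of its 4 calls had spots left once the dimmest 25% of spots were dropped. Its mean of 1.02 on the E. coli time array was 0.41 after removal of the trend and 0.90 with the arrays scaled. On the LPS 1 h array it had -0.89 without centring.

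CSNK1A1, the casein kinase that primes beta-catenin for destruction, stayed between -0.57 and 0.66. CAMK2G, a calmodulin-dependent kinase, had -1.12 ± 0.59 on the E. coli time array from spots at -1.22, -1.65 and -0.48. Without centring it had -0.62 there, and -0.99 with the arrays scaled to 1 spread, both short of 2-fold. On the 8 h stimulus array it had 1.39 ± 1.48, with 1 spot at 3.09 beside 0.34 and 0.75, and a median of 0.75. It had -0.02 on the E. coli 1 h array, 0.30 on the LPS 1 h array and 0.95 on the 4 h stimulus array.

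The PPP genes are catalytic and regulatory subunits of the serine and threonine phosphatases. Of 10 members none was past 2-fold on the E. coli 1 h, LPS 1 h and 8 h stimulus arrays, where 16.3%, 11.2% and 27.9% of all genes were, and 1 was on each of the E. coli time and 4 h stimulus arrays, where 23.1% and 29.4% were. On the E. coli 1 h array they ran from -0.36 for PPP4R3B to 0.54 for PPP2R5C, and on the LPS 1 h array from -0.42 for PPP1CB to 0.70 for PPP2R5C. PPP1CB, a catalytic subunit of protein phosphatase PP1, had -1.12 ± 0.19 on the E. coli time array over 9 spots. Its 3 clones there had -1.27 ± 0.10, -0.88 ± 0.06 and -1.21 ± 0.08, all negative. PPP1CC, the other catalytic subunit of PP1 read, was just short of 2-fold on the same array, from spots at -1.11, -1.01 and -0.87. Without centring PPP1CB had -0.62 there and after removal of the trend -0.79, so this call depends on the setting.

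On the 4 h stimulus array PPP1CB had -0.99 ± 0.38 over 9 spots of one sign and PPP1CC 0.85 ± 1.24 with spots of both signs. On the LPS 1 h array 1 clone of PPP1CB had -1.09 ± 0.23 while the others had -0.12 ± 0.09 and -0.05 ± 0.05. PPP1R8, a nuclear inhibitor of PP1, had -1.12 ± 0.56 on the 4 h stimulus array, from spots at -0.48, -1.38 and -1.49, or -0.77 with the arrays scaled. It had -0.36, 0.13, -0.44 and -0.05 on the E. coli 1 h, LPS 1 h, E. coli time and 8 h stimulus arrays. PPP1R9A, a scaffold that binds PP1 and actin, stayed between -0.33 and 0.19.

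Subunits of PP2A and its relatives stayed within 2-fold on all 5 arrays. PPP2CA, the catalytic subunit, had 0.40 ± 0.09 on the E. coli 1 h array and between -0.60 and -0.20 on the others. The targeting subunits PPP2R2D, PPP2R5C and PPP2R5E stayed between -0.59 and 0.70. PPP2R5C was the one of these that was positive on all 5 arrays, from 0.34 to 0.70. It was dim, at percentile 23.9 of LPS 2 h intensity, and the dimmest 10% of all spots had positive medians on all 5 arrays. PPP4R3B, a subunit of protein phosphatase 4, reached 0.94 ± 0.87 on the E. coli time array, and PPP6R3, of protein phosphatase 6, stayed between -0.03 and 0.49. On the 8 h stimulus array the PPP genes ran from -0.45 for PPP2R2D to 0.49 for PPP6R3.

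The tyrosine phosphatases were 4 genes, 3 of them among the 5 brightest members at LPS 2 h. PTPRC had an intensity of 2.77 ± 1.71, PTPN1 2.67 ± 0.263 and PTPRJ 2.53 ± 1.07, beside PIK3AP1 above and PRKAR1A at 3.01 ± 5.09. All 4 had negative means on the LPS 1 h array, from -0.83 for PTPN2 to -0.25 for PTPRJ, and short of 2-fold. PTPRC, at -0.31 ± 0.43, had spots of both signs there, and its clone 2 had 0.10 ± 0.75. The median over all genes was 0.05 on that array. The brightest 10% of all spots had a median of -0.28 there. By LPS 2 h intensity PTPRC, PTPN1 and PTPRJ were at percentiles 92.3, 91.9 and 91.2, and PTPN2 at 68.7. PTPN2, which takes phosphate off JAK kinases and STAT factors, had spots at -0.94, -0.92 and -0.63 there, against -0.06, -0.04 and -0.01 on the E. coli 1 h array. On the later arrays PTPN2 had -0.06, 0.16 and -0.31. PTPN1, its closest relative, had -0.35 ± 0.19 on the LPS 1 h array and 0.13 ± 0.06 on the E. coli 1 h array.

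PTPN1 was past 2-fold on the 4 h stimulus array, at -1.10 ± 0.25 from spots at -1.38, -1.05 and -0.88. After removal of the trend of ratio with brightness it had -0.49, and with the arrays scaled -0.76. It had -0.03 ± 0.70 on the E. coli time array and on the 8 h stimulus array 0.29 ± 1.35. PTPRJ, a receptor phosphatase that acts on Src family kinases in macrophages, had -1.65 ± 0.17 on the E. coli time array, a 3.13-fold difference. Its spots there were -1.49, -1.82 and -1.63, and it remained past 2-fold without centring (-1.15) and after removal of the trend (-1.29). If that ratio is channel 1 over channel 2, PTPRJ was higher at 4 h than at 2 h of E. coli. On the other arrays PTPRJ had -0.30 ± 0.04 (E. coli 1 h), -0.25 ± 0.19 (LPS 1 h), -0.24 ± 0.86 (4 h stimulus) and -0.50 ± 0.10 (8 h stimulus), so it was negative on all 5. PTPRJ was bright, at percentile 91.2 of LPS 2 h intensity. The brightest 10% of all spots had medians of -0.24, -0.28, -0.76 and -0.43 on these arrays in the same order.

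PTPRC, the pan-leukocyte phosphatase that sets the activity of Src family kinases, was read with 4 clones. For E. coli 1 h 3 of them had -0.16 ± 0.08, 0.14 ± 0.11 and 0.09 ± 0.13, and clone 2 had 3.23 ± 1.18. Clone 2 had an LPS 2 h intensity of 0.276, against 4.45, 2.48 and 3.85 for the others, and on the 8 h stimulus array it had 2.84 ± 2.30 where the others had -1.55 ± 0.27, -1.54 ± 0.28 and -0.35 ± 0.28. The E. coli time array gave PTPRC 0.74 ± 0.84, the highest of the 4 genes there. The gene mean of 0.82 on the E. coli 1 h array and -0.15 on the 8 h stimulus array thus join clones that do not agree. PRKAR1A was similar on the 4 h stimulus array, where clone 1 had 1.12 ± 0.27 and the others had -1.03 ± 0.25 and -0.96 ± 0.62. In that clone 1 spot had an LPS 2 h intensity of 16.4 beside 0.562 and 0.580.

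**Figure D4:**
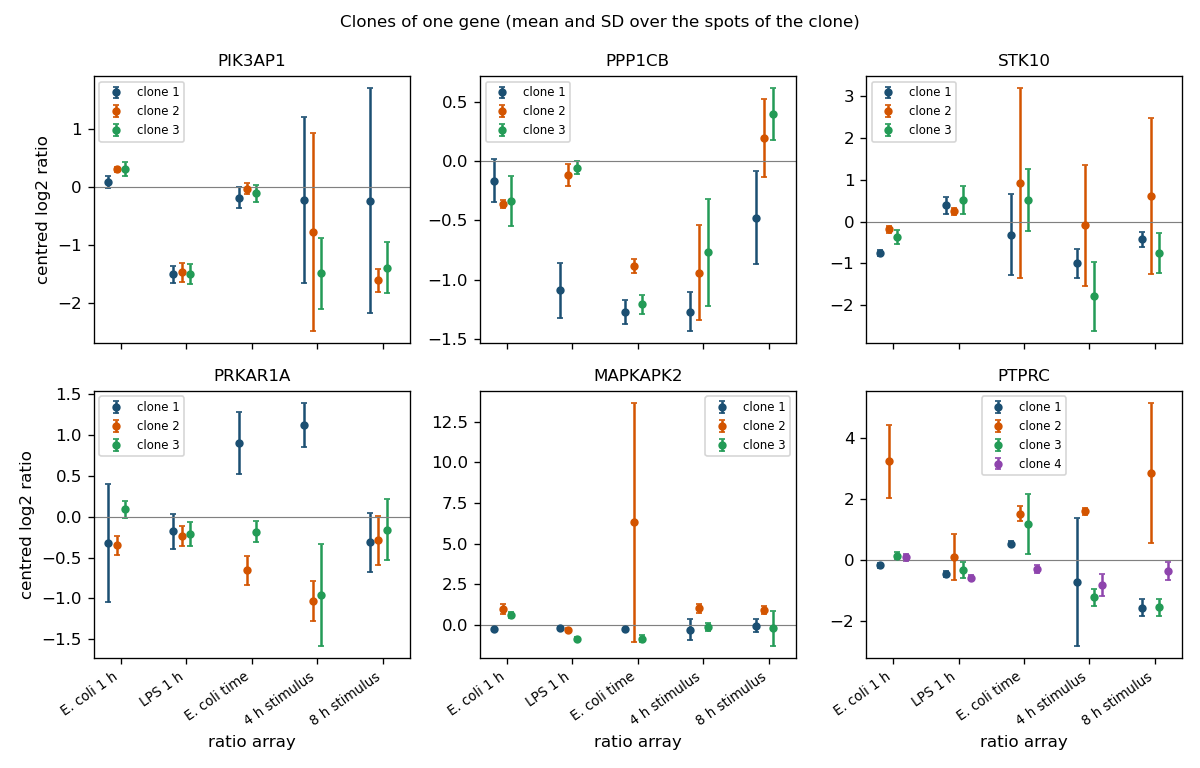
Centred log2 ratio by clone (points, mean with SD over the spots of the clone) of 6 members read with 3 or 4 clones, on the 5 ratio arrays, with a separate vertical scale for each gene. The clones of PIK3AP1 coincide on the LPS 1 h array near -1.50, while clone 2 of PTPRC lies above its other clones on all 5 arrays, and clone 2 of MAPKAPK2 does so on all but the LPS 1 h array.

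Clones were a check within an array that the spots of 1 clone cannot give. Of the 44 members 34 had 1 clone, 4 had 2, 5 had 3 and 1 had 4. Of the members with several clones, 2 had a call past 2-fold in which every spot had one sign: PIK3AP1 on the LPS 1 h array and PPP1CB on the E. coli time array. All other such calls rest on 1 clone each.

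Dim spots had higher median ratios than bright spots on all 5 ratio arrays. The E. coli 1 h array was the only one with all its member calls among the dimmest 25% of genes. From the dimmest to the brightest 10% of all spots, the median centred ratio was 0.83 and -0.24 on the E. coli 1 h array, 0.20 and -0.28 on the LPS 1 h array, 0.69 and -0.38 on the E. coli time array, 1.18 and -0.76 on the 4 h stimulus array, and 0.67 and -0.43 on the 8 h stimulus array. All 3 members past 2-fold with E. coli 1 h, CSNK2A1, PIK3R1 and MAP3K20, were among the 7 in the dimmest 25% of genes, where 40.7% of all genes were past 2-fold. None of the 37 brighter members was past 2-fold there. Over all genes the shares in the successive brighter bands of 25% were 10.3%, 6.39% and 7.64%. Genes at large thus showed the same contrast, and it is not particular to the members. On the E. coli time array 2 of 7 members in the dimmest 25% and 3 of 10 in the brightest 25% were past 2-fold. Of the 20 members past 2-fold on any array, 4 were in the dimmest 25%, as were 7 of all 44 members. The members past 2-fold on 3 or 4 arrays, MAP3K20, PIK3R1 and CSNK2A1, were among those 4. In the order of the arrays above, the 7 held 3, 2, 2, 2 and 3 of the 3, 4, 10, 5 and 9 members past 2-fold. Of all genes in the dimmest 25%, 40.7%, 17.3%, 38.9%, 46.2% and 43.2% were past 2-fold. On the LPS 1 h array PIK3AP1 and PIK3R5 were in the brighter part, at percentiles 96.5 and 70.3, and CSNK2A1 and PIK3R1 in the dimmest 25%. The median LPS 2 h intensity of the members was 0.571, beside 0.509 over all genes, and levels depend on the clone as well as on the message.

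**Figure D5:**
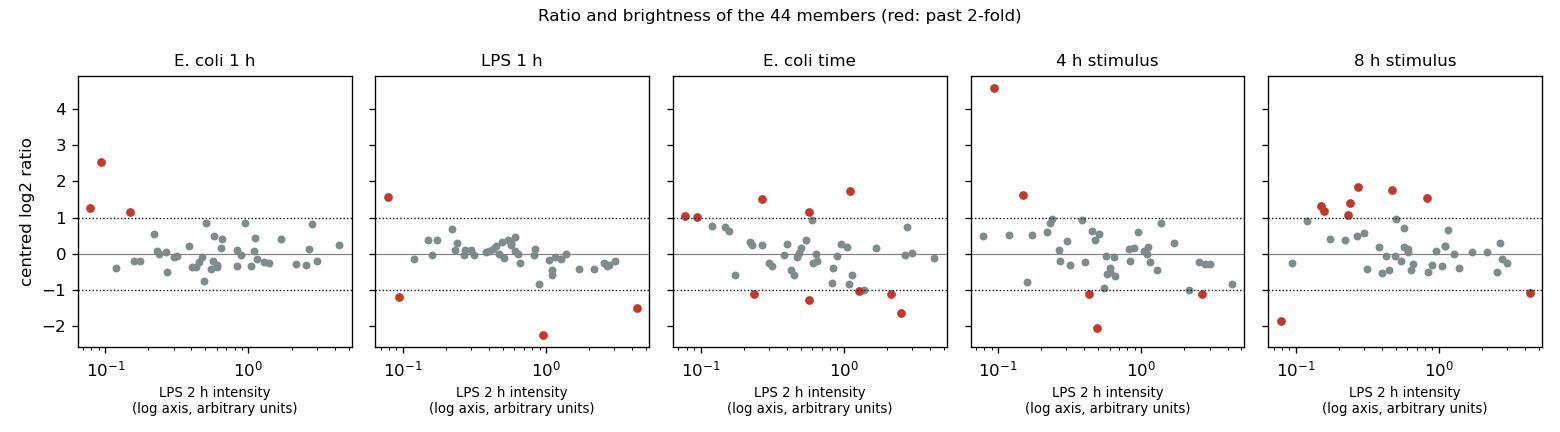
Centred log2 ratio (vertical axis) against LPS 2 h intensity (log axis, arbitrary units) of the 44 members on each ratio array, with members past 2-fold in red and dotted lines at 2-fold. On the E. coli 1 h array the 3 red points lie at the dim end, and on the LPS 1 h array PIK3R5 and PIK3AP1 lie in the brighter part.

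Partners of these families were read from lists of known genes. Of 10 genes around Ras, Raf and the MAP kinases, the E. coli 1 h array had 1 past 2-fold and positive, and 2 were past it and negative on the LPS 1 h array, with 1 negative on each of the E. coli time, 4 h and 8 h stimulus arrays. Over all genes 16.3%, 11.2%, 23.1%, 29.4% and 27.9% were past 2-fold on these arrays in the same order, and counts of 1 or 2 of 10 genes are too small to read more from. The same shares apply to the lists that follow. The medians of the 10 lay between -0.17 and 0.16 on the 5 arrays. BRAF, the kinase above MAP2K1, had -1.56 ± 0.38 on the LPS 1 h array and 0.50 ± 0.26 on the E. coli 1 h array. MAP3K8, which activates MAP2K1 below toll-like receptors, had -1.04 ± 0.45 on the LPS 1 h array, -1.61 ± 0.73 on the 8 h stimulus array and 0.66 ± 0.10 for E. coli 1 h. RRAS, a small GTPase of adhesion, had 1.59 ± 0.11 on the E. coli 1 h array from 2 spots of a dim clone. MAPK14, the p38 kinase, had -2.30 ± 0.67 on the E. coli time array from 2 spots of a dim clone, and RAP1B, a GTPase of integrin control, -1.52 ± 0.47 on the 4 h stimulus array.

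Of 7 genes of the AKT and mTOR branch, none was past 2-fold on the arrays of E. coli 1 h, LPS 1 h or 8 h, and the medians lay between -0.43 and 0.19. GSK3A, a kinase that AKT inhibits, had -1.31 ± 0.12 on the E. coli time array and -1.03 ± 0.28 on the 4 h stimulus array, with all spots negative. MTOR had 1.23 ± 0.69 and RICTOR 1.25 ± 1.42 on the 4 h stimulus array, the second with spots of both signs. Both were dim, at percentiles 19.1 and 20.9 of LPS 2 h intensity. RHEB, the GTPase that activates mTOR, had -0.54 ± 0.05 on the LPS 1 h array. SGK1 had -0.63 ± 0.11 there, and the rest of the list was positive. Of 7 dual specificity and related phosphatases, with medians from -0.80 on the 4 h stimulus array to 0.10, DUSP6, which inactivates ERK, was past 2-fold positive on the LPS 1 h array at 1.12 ± 0.15 and on the 8 h stimulus array at 1.73 ± 2.31. DUSP1, which inactivates p38 and JNK, had -1.41 ± 1.23 on the LPS 1 h array with spots of both signs. Also past 2-fold with spots of both signs were PTP4A3 on the 4 h stimulus array at -1.57 ± 1.76 and PTP4A2 on the 8 h stimulus array at 1.01 ± 1.27.

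Of 5 non-receptor tyrosine kinases none was past 2-fold on the arrays of E. coli 1 h, LPS 1 h or E. coli time, and the medians lay between -0.59 and 0.11. LYN, a Src family kinase of myeloid cells, had -1.06 ± 0.23 on the 4 h stimulus array over 6 spots of one sign. SYK, the kinase below Fc receptors, had -1.48 ± 1.63 on the 4 h stimulus array with spots of both signs and -1.93 ± 1.57 on the 8 h stimulus array with spots of one sign. FYN had -0.42 ± 0.18 on the LPS 1 h array and 0.34 ± 0.11 on the E. coli 1 h array over 9 spots of one sign each, both short of 2-fold. LYN, SYK and BTK had the opposite signs. They had 0.14, 0.35 and 0.11 on the LPS 1 h array. On the E. coli 1 h array they had -0.50, -0.44 and -0.74, each with spots of one sign. TXK had -0.09 and -0.13 on the LPS 1 h and E. coli 1 h arrays.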

How the data were processed

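Gene expression was read on 6 arrays with 1 array per comparison, grouped by the labels. The authors deposited 1 table of 14718 spots. Its values for 5 arrays are log2 ratios made by the authors, with base 2 assumed since 1 spot exceeds 16 in size, and for LPS 2 h an intensity that the authors deposited on a linear scale, with 204 spots below 0. What the authors divided, scaled or filtered, and with which dyes, is not stated by label or header.

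The probe table lists 9069 spots, 9066 of them with 1 gene and 3 with several, and 5649 spots had no name here. Symbols were updated through RefSeq gene identifiers (GRCg7b, 2228 of 2255 matched, all 44 members among them). Ratios were centred on the array median and averaged over the 3 spots of a clone, then over clones. The tools were Python 3.11.15, pandas 2.3.3, numpy 2.4.6, statsmodels 0.14.6 and matplotlib 3.10.9, and the steps were tested on simulated data. The simulated effects were well past 2-fold, with even noise and no trend with brightness, so calls near 2-fold were not checked by it. The number of arrays limits the precision, and no test between groups was possible. Members and lists were chosen with earlier results of these data known.

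Named are every member past 2-fold on at least 2 spots of one sign, the members past it otherwise, the family extremes on an array, the 5 brightest members, and list and marker genes past 2-fold with spots of one sign. Other members are named, after their values were seen, to account for all 44. Some list and marker genes short of 2-fold or with spots of both signs are named too, also picked after their values were seen. The lists were dual specificity phosphatases, Ras, Raf and MAP kinase partners, AKT and mTOR partners, non-receptor tyrosine kinases, calmodulin with A-kinase anchors and YWHA proteins, other serine and threonine phosphatases, and markers of erythroid cells, heterophils, T cells, B cells and macrophages. No gene of the thrombocyte and stromal lists was matched. Alternatives were no centring, removal of a lowess trend (span 0.3) on LPS 2 h intensity, the median over spots, leaving out the dimmest 25% of spots, scaling arrays to 1 spread, calls on spots of one sign, and a 1.5-fold threshold.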

Additional observations from a re-analysis of the deposited data

How the results depend on the processing

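Member counts past 2-fold stayed within 1.5 times of those reported except as follows. On the E. coli 1 h array the 3 became 0 without dim spots, 6 with the arrays scaled to 1 spread and 7 at 1.5-fold (where 32.3% of all genes passed). On the LPS 1 h array the 4 became 2 without dim spots, 7 when scaled and 7 at 1.5-fold (22.3%). On the E. coli time array the 10 became 5 when scaled and 20 at 1.5-fold (46.0%). On the 4 h stimulus array the 5 became 9 with the median over spots, 3 when scaled and 17 at 1.5-fold (51.5%). The member median on the LPS 1 h array was 0.27 without centring, beside 0.34 over all genes. Leaving out the centring shifts members and all other genes alike by the array median, which was largest on the E. coli time array, at 0.49. Of the means past 2-fold, 2 changed sign with the median over spots, MAPKAPK2 to -0.27 on the E. coli time array and PIK3R1 to 1.43 on the 8 h stimulus array. Of 27 calls with spots of one sign, 22 were kept without centring, 16 after removal of the trend, 24 with the median, 19 when scaled, and 16 without dim spots, where 10 had no spots left. A lower threshold or dropped spots change counts by construction, and for the others the cause was not tested. No paired analysis was possible because each comparison had 1 array. No spot background was used here, so what dim spots can show is limited.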

Other observations

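A pair of lists around the same enzymes is not described above. Of 7 calmodulin, A-kinase anchor and YWHA genes, which bind kinases or phosphorylated proteins, AKAP13 had -1.28 ± 0.20 on the LPS 1 h array with all spots negative, and 1.81 ± 3.37 with spots of both signs on the E. coli 1 h array. YWHAZ had -1.15 ± 0.17 on the E. coli time array and YWHAQ -1.16 ± 0.45 on the 4 h stimulus array, each over 6 spots of one sign, and no gene of the list was past 2-fold on the 8 h stimulus array. The list medians lay between -0.24 and 0.32.

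Of 8 other serine and threonine phosphatases and PP2A inhibitors, PPM1M, a phosphatase of the metal-dependent class, had 1.35 ± 0.53 on the E. coli 1 h array and -1.46 ± 0.81 on the LPS 1 h array. It also had 2.60 ± 0.24 on the 4 h stimulus array and 2.17 ± 2.22 on the 8 h stimulus array, each with spots of one sign on a dim clone (percentile 16.7). PPM1E, of the same class, had -1.29 ± 0.43 on the E. coli time array and -1.09 ± 0.48 on the 4 h stimulus array over 6 spots of one sign. SET, an inhibitor of PP2A, had -1.63 ± 1.66 on the LPS 1 h array and ANP32A, another such inhibitor, -1.05 ± 1.53 on the 4 h stimulus array, both with spots of both signs. The list medians lay between -0.52 and 0.40.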
